A study of Mus musculus with 8 samples.

Results

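The Usp17l and Tdpoz genes are multicopy families whose transcripts appear in the mouse embryo at the 2-cell stage. Their copies were looked up by symbol among the 13101 genes of the deposited expression table. Of the 10 symbols looked for (Usp17la to Usp17le and Tdpoz1 to Tdpoz5), 7 had a row: Usp17la, Usp17lb, Usp17lc, Usp17ld, Tdpoz1, Tdpoz2 and Tdpoz4. Usp17le, Tdpoz3 and Tdpoz5 were not analysed here. The 8 libraries were polyA RNA-seq of pools of 12 to 18 embryos at the 2-cell stage on a C57BL/6 background, 4 of the genotype WT and 4 of the genotype Dux KO. Embryos came from timed matings with no treatment named, and the labels describe neither the Dux KO allele nor the parents. Nothing states that pools came from separate matings, so p-values measure only the spread between these pools. By the study's title, the question was whether the transcription factor DUX is needed when the embryonic genome switches on.

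USP17L proteins are deubiquitinases, enzymes that cut ubiquitin off other proteins. The mouse copies were first known as the Dub genes, which cytokines induce in blood cells. TDPOZ proteins join a TRAF domain, which binds substrates, to a BTB/POZ domain. The ubiquitin ligase adaptor SPOP has the same layout and uses its BTB domain to bind the scaffold protein CUL3. Both families sit in clusters of recent copies and belong to the burst of transcription at the 2-cell stage, in which DUX activates a group of genes and the endogenous retrovirus MERVL.

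The copies lie in separate clusters of the genome (GRCm38, annotation GENCODE M21). The 4 Usp17l copies span chr7:103249737-104862667. Usp17ld lies at chr7:103249737-103252505 on the minus strand, Usp17lc at chr7:103415072-103419880 on the plus strand, Usp17lb at chr7:104840257-104842603 on the minus strand and Usp17la at chr7:104857009-104862667 on the plus strand. Tdpoz2 lies at chr3:93651542-93652686 and Tdpoz1 at chr3:93669333-93676310, both on the minus strand, and Tdpoz4 at chr3:93796398-93797510 on the plus strand. All 7 are annotated as protein coding. Tdpoz2 and Tdpoz4 are annotated as a single exon each, whereas Tdpoz1 has an added exon upstream.

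The Usp17l copies share their upstream sequence as well as their transcripts, which is why their promoters are shown here side by side. Each stretch is 100 bases of the gene's own strand from the RefSeq promoter windows (GRCm38.p6), 5′ to 3′, with the TATA box position in capitals. The stretches lie at chr7:104856910-104857009 (plus strand, Usp17la), chr7:104842575-104842674 (minus strand, Usp17lb), chr7:103416548-103416647 (plus strand, Usp17lc) and chr7:103252576-103252675 (minus strand, Usp17ld). A longer GENCODE transcript of Usp17lc starts further upstream, so that its stretch lies in an intron of that transcript.
Usp17la: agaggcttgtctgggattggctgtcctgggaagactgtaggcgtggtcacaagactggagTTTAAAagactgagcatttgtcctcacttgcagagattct
Usp17lb: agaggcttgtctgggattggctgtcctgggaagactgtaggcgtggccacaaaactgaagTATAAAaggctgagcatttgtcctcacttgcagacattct
Usp17lc: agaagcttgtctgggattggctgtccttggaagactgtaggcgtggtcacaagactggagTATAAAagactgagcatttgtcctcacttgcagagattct
Usp17ld: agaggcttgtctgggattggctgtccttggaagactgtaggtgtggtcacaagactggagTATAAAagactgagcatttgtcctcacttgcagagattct
The same base stood in all 4 stretches at 91 of 100 positions. The letters TATAAA were found in Usp17lb, Usp17lc and Usp17ld, beginning 31, 88 and 110 bases before the RefSeq start. In Usp17la the capitals mark the place that aligned with the box of Usp17lc, 46 bases before the start, and the letters TATAAA were not in its window. On either strand, TATAAA was found in 13.6% of 32817 promoter windows of 300 bases (250 before and 50 after the start).

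Tdpoz1, the one copy whose difference between WT and Dux KO passed the main test, is shown next. Its window held the letters TAATCC, the core that homeodomain proteins of the OTX and OBOX type bind. The part of these letters in the level of Tdpoz1 was not tested. The 120 bases at chr3:93676314-93676433 on the minus strand lie just upstream of the annotated gene, with TAATCC in capitals, 118 bases before the RefSeq start.
Tdpoz1: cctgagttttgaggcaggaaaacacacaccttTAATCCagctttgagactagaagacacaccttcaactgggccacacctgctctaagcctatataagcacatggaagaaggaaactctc
TAATCC was in 7.06% of all promoter windows and in 1 of the 7 member windows in the table. The table held windows for Tdpoz1, Tdpoz4, Tdpoz5 and the 4 Usp17l copies. The DUX motif, searched as TGATT, any base and AATCA, was in 11 of the 32817 windows (0.0335%) and in 0 of these 7. For letters so rare, 0 of 7 windows was likely beforehand, so this search cannot tell whether DUX binds near these copies. The windows of Tdpoz4 and Tdpoz5 lie before coding-only gene models, so that they need not reach the true start.

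Usp17lb, the former Dub1a, carried nearly all of the Usp17l signal. Its level, in FPKM (fragments per kilobase of transcript, scaled to library size), was 102, 111, 148 and 71.3 in WT pools 1 to 4. In the Dux KO pools it was 87.1, 85.3, 109 and 125. The groups overlapped, and both the highest and the lowest pool were WT. The mean was 108 ± 31.6 FPKM in WT and 102 ± 18.9 in Dux KO (SD, n = 4 pools each). The log2 fold change of FPKM + 1, Dux KO over WT, was -0.06 with a standard error of 0.22 (limma, adjusted p = 0.836). Its 95% interval ran from -0.54 to 0.41.

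The other 3 Usp17l copies were low. Usp17lc, the former Dub2, was at 3.05, 3.79, 2.61 and 1.52 FPKM in WT and at 2.70, 4.61, 3.22 and 3.34 in Dux KO, from 49 to 178 reads per pool. Usp17ld was at 1.31, 0.906, 1.25 and 0.917 FPKM in WT and at 1.63, 2.43, 1.12 and 1.23 in Dux KO, from 24 to 76 reads. For both, Dux KO pool 2 was the highest of all 8 pools, and the groups overlapped. Their log2 differences were 0.28 (interval -0.20 to 0.75) and 0.29 (-0.09 to 0.67), with limma adjusted p of 0.326 and 0.2004.

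Usp17la, the former Dub1, varied widely between pools of 1 group. It was at 0.521, 0.217, 2.59 and 0.8292 FPKM in WT and at 1.82, 2.73, 0.965 and 0.621 in Dux KO, from 8 to 114 reads. WT pool 3 and Dux KO pools 1 and 2 were high, and the other 5 pools lay below 1 FPKM. The log2 difference was 0.36 with a standard error of 0.33, an interval of -0.36 to 1.09 and a limma adjusted p of 0.3998. Without Dux KO pools 1 and 2 it was -0.07. Ovgp1, the secreted glycoprotein that marks oviduct epithelium, was high in the same 3 pools. Its levels were 1.74, 2.00, 11.5 and 4.63 FPKM in WT and 11.7, 22.0, 3.07 and 5.12 in Dux KO. The other 2 oviduct markers in the table did not share this pattern. Epcam was at 135, 135, 116 and 143 FPKM in WT and at 113, 65.2, 92.0 and 91.7 in Dux KO, lowest in WT pool 3 and in Dux KO pool 2 within their groups. Krt18 was at 1.699, 4.71, 2.43 and 2.54 FPKM in WT and at 13.3, 9.60, 2.58 and 1.80 in Dux KO, high in Dux KO pools 1 and 2 but not in WT pool 3. The part of these markers in the Usp17la values was not tested.

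**Figure D1:**
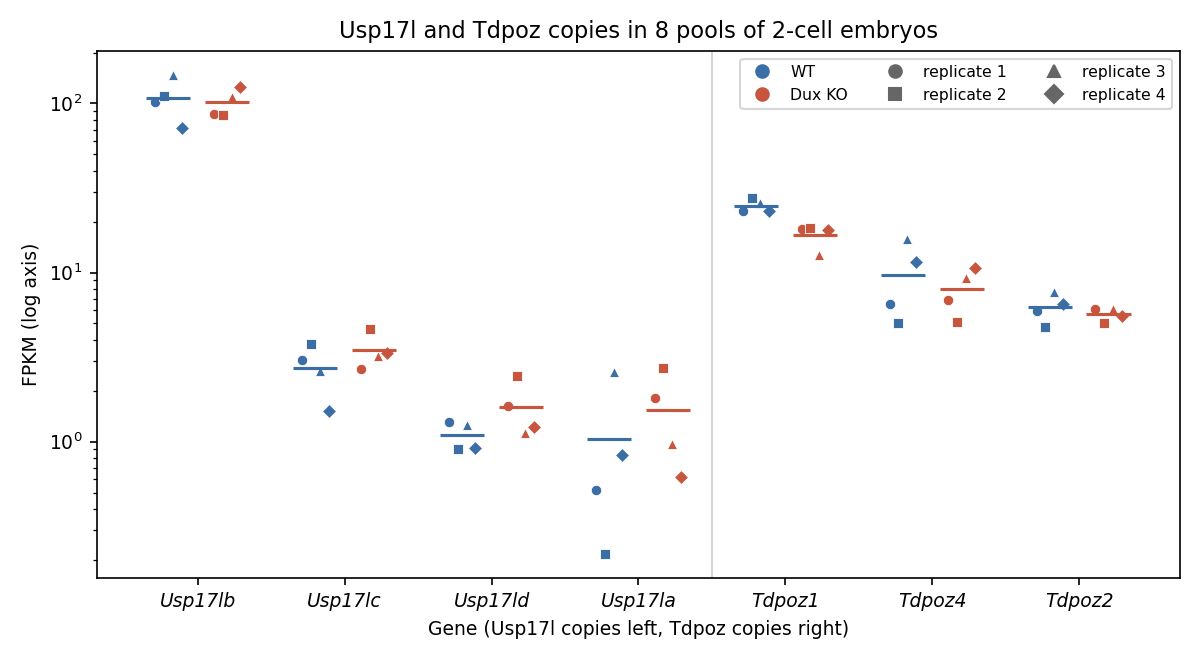
Level of each copy in FPKM (log axis) in each of the 8 pools, with WT in blue, Dux KO in red, symbols for the replicate number and a bar at the mean of 4 pools. Usp17lb stands between 71.3 and 148 FPKM in every pool, and Tdpoz1 is the copy whose Dux KO points all lie below its WT points.

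Tdpoz1, also known as Spopl1, was the one copy of either family that passed the test. Its level was 23.1, 27.5, 25.8 and 23.1 FPKM in WT and 18.0, 18.4, 12.8 and 17.8 in Dux KO, from 446 to 899 reads per pool. Every Dux KO pool lay below every WT pool. The mean fell from 24.9 ± 2.17 to 16.7 ± 2.64 FPKM (SD, n = 4 pools each), a ratio of 0.673. The log2 fold change was -0.55 with a standard error of 0.16 and an interval of -0.90 to -0.21 (limma, adjusted p = 0.0214). The authors' deposited table gave Tdpoz1 a log2 fold change of -0.57 and an adjusted p of 0.0123. The call was lost when WT pool 2 was left out (log2 -0.51, limma adjusted p = 0.053) and under quantile normalization (-0.44, 0.060), with the direction kept. It was also lost without Dux KO pools 1 and 2 together (-0.68, 0.058) and without pools 3 and 4 together (-0.43, 0.081). In a bulk pool, fewer cells or embryos that express a gene and less of its RNA per cell cannot be told apart.

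Tdpoz4 and Tdpoz2 lay lower and did not pass. Tdpoz4 was at 6.51, 5.04, 15.7 and 11.6 FPKM in WT and at 6.87, 5.09, 9.33 and 10.6 in Dux KO. Pools 3 and 4 were above pools 1 and 2 in both groups, and the groups overlapped. Tdpoz2 was at 5.90, 4.78, 7.69 and 6.50 FPKM in WT and at 6.08, 5.05, 6.13 and 5.52 in Dux KO, again with overlap. The log2 differences were -0.19 (interval -0.87 to 0.50, limma adjusted p = 0.660) for Tdpoz4 and -0.10 (-0.46 to 0.27, adjusted p = 0.668) for Tdpoz2.

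**Figure D2:**
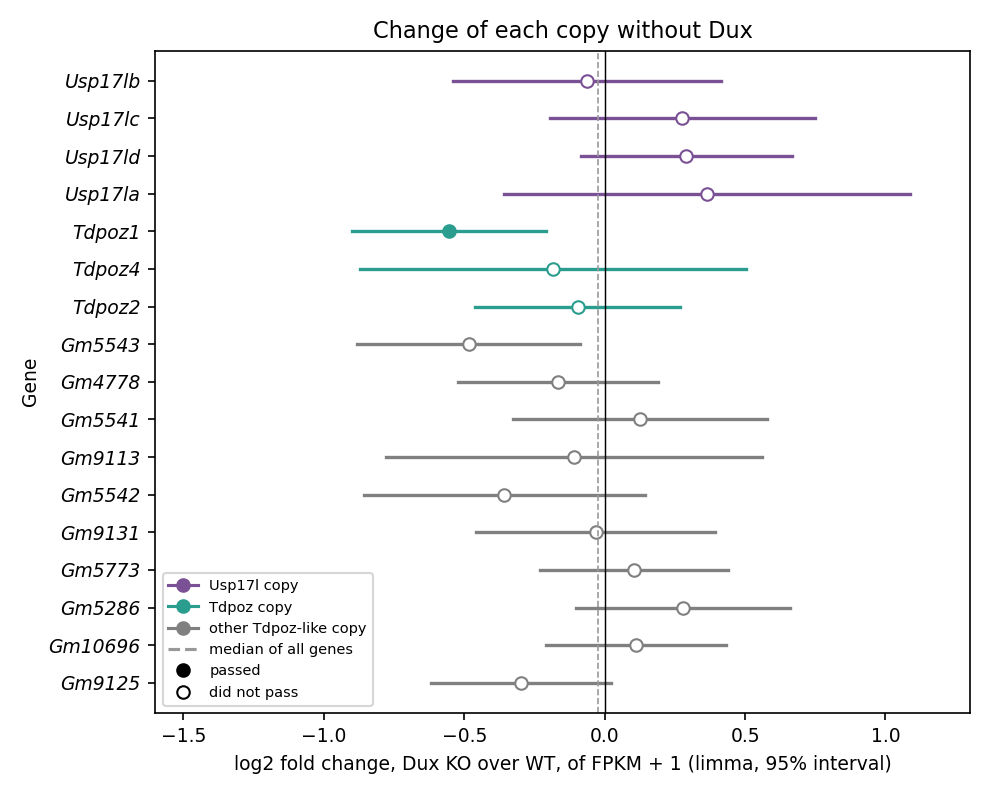
Log2 fold change of FPKM + 1, Dux KO over WT, with its 95% interval (limma) for the 7 copies and for 10 other Tdpoz-like copies of the cluster, with filled points for those that passed and a dashed line at the median of all genes tested. Tdpoz1 at -0.55 is the single filled point, and the Usp17l intervals all hold 0.

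All 7 copies passed the filter of a mean of at least 0.5 FPKM. By limma at an adjusted p under 0.05, 1 of 7 was lower and 0 were higher in Dux KO. Over all 12434 genes tested, 18.1% were called lower and 15.5% higher. At an unadjusted p under 0.05 the counts of members were also 1 lower and 0 higher, as they were by edgeR and by DESeq2 on recovered reads. The median log2 difference was 0.28 over the 4 Usp17l copies and -0.19 over the 3 Tdpoz copies, against -0.02 over all genes. Values of 1 of the 7 copies did not overlap between the groups, against 33.1% of all genes.

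Set in order of mean FPKM over the 8 pools, Usp17lb (105) stood first, followed by Tdpoz1 (20.8), Tdpoz4 (8.84), Tdpoz2 (5.95), Usp17lc (3.10), Usp17ld (1.35) and Usp17la (1.29). Usp17lb lay above Tdpoz1 in all 8 pools with no overlap of their ranges. Tdpoz1 lay above Tdpoz4 within each pool, although their ranges over the 8 pools overlapped. The ranges of Tdpoz4 and Tdpoz2 overlapped too, as did those of Usp17lc with Usp17ld and of Usp17ld with Usp17la.

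Among the copies that carry a family's symbol and had a row, the families differed in how evenly the copies contributed. Usp17lb made up 89.7 to 96.0% of the summed FPKM of the Usp17l copies, 33.8-fold above Usp17lc in mean FPKM and 81.5-fold above Usp17la. Tdpoz1 made up 45.3 to 73.7% of the Tdpoz sum, 2.35-fold above Tdpoz4 and 3.49-fold above Tdpoz2. Tdpoz4 gave 13.5 to 33.0% of that sum and Tdpoz2 12.8 to 21.7%. These shares depend on which genes are counted. The Tdpoz-like copy Gm5543, which is not in the Tdpoz sum, had a mean of 83.4 FPKM over all pools, against 20.8 for Tdpoz1. Whether the families differ when such copies are counted was not tested. Copies without a row are also missing from both sums.

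The Usp17l sum was 107, 116, 154 and 74.5 FPKM in WT and 93.2, 95.1, 114 and 130.0 in Dux KO, a ratio of means of 0.956. The sum of the copies named Tdpoz was 35.5, 37.3, 49.2 and 41.2 FPKM in WT and 31.0, 28.5, 28.2 and 33.8 in Dux KO. The 4 Dux KO sums of Tdpoz lay below the 4 WT sums, with means of 40.8 ± 6.08 and 30.4 ± 2.61 FPKM (SD, n = 4) and a ratio of 0.745, most of it from Tdpoz1. The Usp17l sums overlapped. Of all genes tested, 33.1% had groups that did not overlap. Gm5543, which is left out of the Tdpoz sums, had groups that overlapped.

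**Figure D3:**
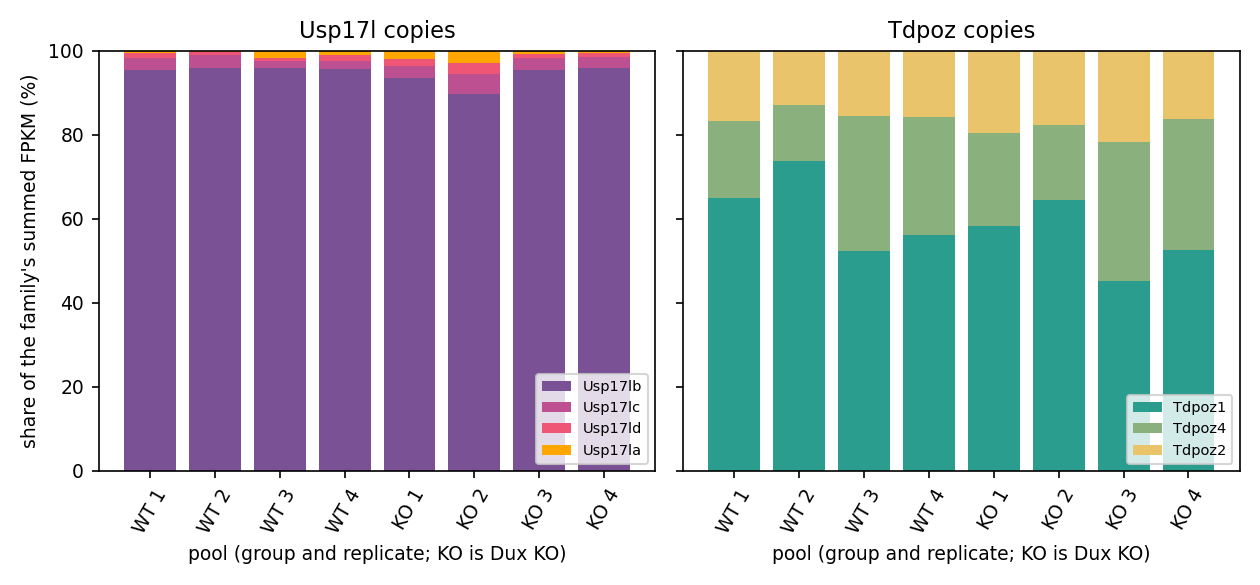
Share of each copy in the summed FPKM of the copies that carry its family's symbol (%), 1 bar per pool. The Usp17l copies are on the left and the Tdpoz copies on the right. Usp17lb fills at least 89.7% of every Usp17l bar, whereas Tdpoz1 ranges from 45.3% in Dux KO pool 3 to 73.7% in WT pool 2.

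Whether Tdpoz1 changed differently from other copies was tested within pools, on log2 ratios chosen after the values were seen. The log2 ratio of Tdpoz1 to Tdpoz2 was lower in Dux KO by a mean difference of -0.46 (exact permutation test, two-sided, p = 0.0571). The difference was -0.37 for Tdpoz1 to Tdpoz4 (exact permutation p = 0.486) and -0.49 for Tdpoz1 to Usp17lb (exact permutation p = 0.143). Benjamini-Hochberg adjustment over these 3 permutation tests gave 0.171, 0.486 and 0.214. The smallest p that 4 against 4 pools allow in this exact test is 0.0286. A change of Tdpoz1 apart from the other copies was therefore not shown.

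Between pools, correlations among copies of a family ranged from low to high. Over the 8 pools, the log2 levels of Tdpoz2 and Tdpoz4 had a Pearson correlation of 0.86, while Tdpoz1 had 0.07 with Tdpoz2 and 0.01 with Tdpoz4. Among the Usp17l copies, Usp17la and Usp17ld had 0.72, Usp17lc and Usp17ld 0.54, and Usp17la and Usp17lb -0.01. These are descriptions over 8 pools of both groups that share the libraries and, for close copies, reads. Low counts can also weaken a correlation, with 8 to 114 reads per pool for Usp17la, 24 to 76 for Usp17ld and 76 to 106 for Tdpoz2.

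How well a read can be assigned to 1 copy differs between them. Transcripts of the Usp17l copies, Usp17le included, were 91.0 to 97.9% identical over their aligned bases, with Usp17lc and Usp17ld the closest pair and Usp17lb 91.0 to 91.8% identical to the rest. The Tdpoz transcripts were 81.5 to 89.2% identical. Of all 50-base windows of the transcript, 21.8% in Usp17lb and 19.6% in Usp17la also occurred in another gene. The share was 44.7% in Usp17lc and 51.1% in Usp17ld, of which nearly all lay in the other of this pair. It was 45.1% in Tdpoz1, most of it shared with the gene model Gm9117, 48.3% in Tdpoz2 and 41.2% in Tdpoz4. The authors' treatment of reads that fit several copies is not given in the sources used here, so the level of each copy is uncertain by an amount that these files do not show.

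The Tdpoz cluster holds further copies without a Tdpoz symbol in the table. Within 500000 bases of the cluster, 10 other genes of the table aligned to a Tdpoz transcript over at least 500 bases at 70% identity or more. Gm5543, annotated as an unprocessed pseudogene at chr3:94157631-94158721 and 97.1% identical to Tdpoz5, was the most abundant Tdpoz-like transcript. It was at 98.0, 92.3, 96.9 and 97.9 FPKM in WT and at 62.2, 53.5, 67.0 and 99.0 in Dux KO, above Tdpoz1 in every pool. Dux KO pools 1 to 3 lay below all WT pools, and Dux KO pool 4 lay above them. The mean was 96.3 ± 2.70 FPKM in WT and 70.4 ± 19.9 in Dux KO (SD, n = 4), with a log2 difference of -0.48 and a limma adjusted p of 0.059. Without Dux KO pool 4 Gm5543 was called lower (log2 -0.66, limma adjusted p = 0.0108). With each other pool left out it was not called.

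Gm4778 was next, with a WT mean of 10.6 ± 1.54 FPKM and a Dux KO mean of 9.35 ± 1.35 (SD, n = 4, log2 -0.17, limma adjusted p = 0.438). The remaining 8 copies had group means of 0.868 to 2.98 FPKM. Gm9125, 98.0% identical to Tdpoz1 and named Tdpoz9 by RefSeq, was at 1.32 ± 0.416 and 0.868 ± 0.119 FPKM (limma adjusted p = 0.129). None of the 10 copies was called by limma, edgeR or DESeq2, while limma called 33.6% of all genes tested. At an unadjusted p under 0.05, 1 was lower (Gm5543) and 0 were higher. Their median log2 difference was -0.07.

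**Figure D4:**
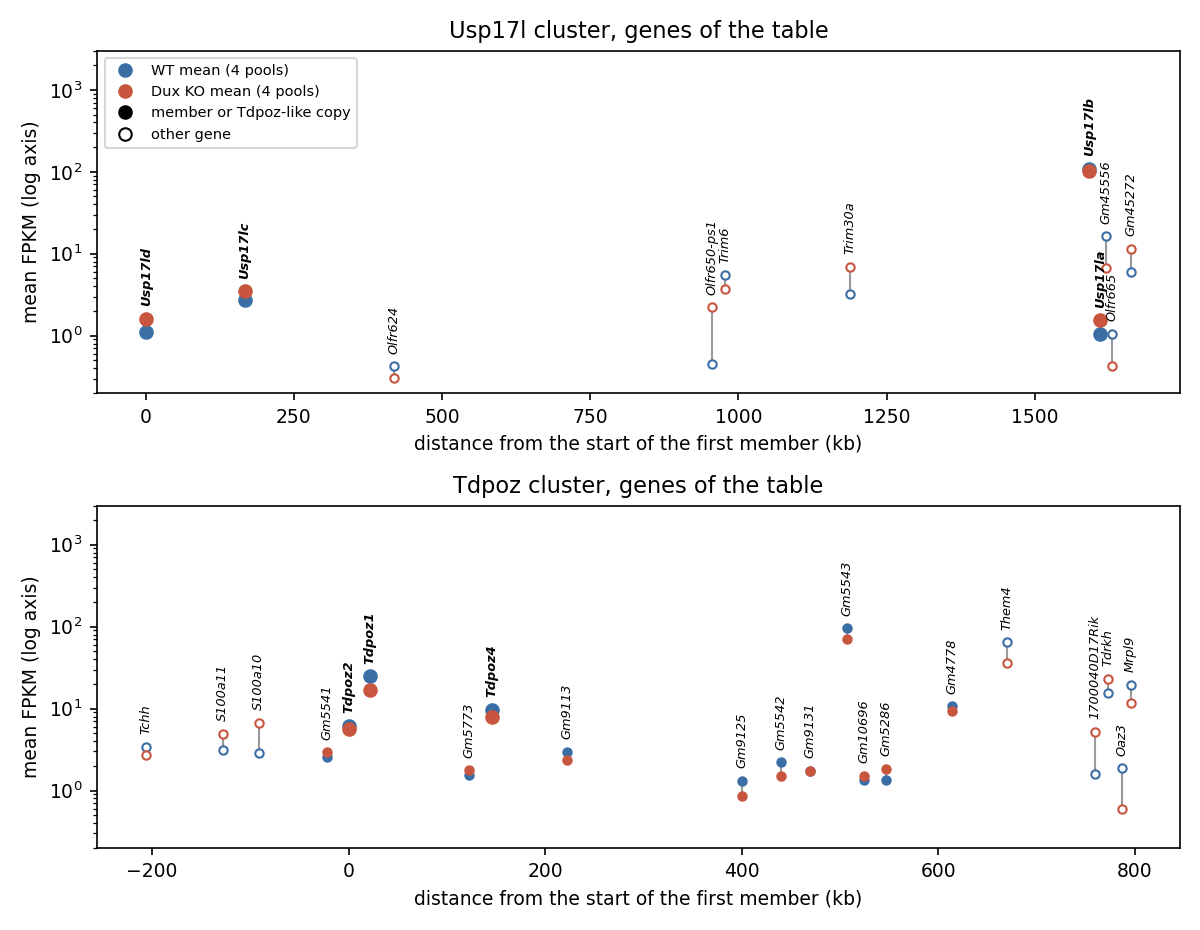
Mean FPKM (log axis) in WT (blue) and Dux KO (red) of the genes of the table in and near each cluster, against distance in kb from the start of the first member, with members and Tdpoz-like copies filled and other genes open. Usp17lb and the Tdpoz-like copy Gm5543 stand highest, and neighbours of both clusters differ in either direction.

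Genes next to the copies were called in both directions, as were genes of the whole table (15.5% higher and 18.1% lower by limma). Near the Usp17l cluster, 7 other genes were in the table, of which 6 were tested: 3 were higher and 2 lower. The lincRNA Gm45556, which starts at chr7:104867993 just past Usp17la, fell from 16.2 ± 5.87 to 6.61 ± 2.06 FPKM (SD, n = 4, log2 -1.16, limma adjusted p = 0.010). The odorant receptor gene Olfr665 fell from 1.06 to 0.431 FPKM. The 3 higher genes were Trim30a, a restraint on inflammatory signalling (3.24 to 6.92 FPKM), the lincRNA Gm45272 (5.99 to 11.6) and Olfr650-ps1 (0.450 to 2.22). By edgeR and by DESeq2, Gm45556 was called lower, Olfr665 was not, and Trim30a and Gm45272 were called higher. Olfr650-ps1 was called higher by edgeR but not by DESeq2 or in the authors' deposited table. The groups overlapped for Gm45272, Olfr665 (3 to 66 reads per pool) and Olfr650-ps1 (0 to 142 reads).

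Near the Tdpoz cluster, 8 other genes without Tdpoz sequence were tested: 3 were higher, 3 lower and 2 did not pass. S100a10, the annexin A2 partner, rose from 2.85 to 6.73 FPKM. The lincRNA 1700040D17Rik rose from 1.59 to 5.20 FPKM, and Tdrkh, a piRNA pathway scaffold, from 15.6 to 23.0. Them4, a mitochondrial thioesterase, fell from 64.3 to 35.8 FPKM, Mrpl9, a mitochondrial ribosomal protein gene, from 19.6 to 11.6, and the antizyme gene Oaz3 from 1.88 to 0.598. Their limma adjusted p ran from 0.0035 for Oaz3 to 0.043 for Tdrkh. The groups overlapped for Tdrkh and for 1700040D17Rik (3 to 115 reads per pool). Counted over both clusters with the Tdpoz-like copies, 6 of 24 tested neighbours were higher and 5 lower, with a median log2 difference of -0.07. Of all genes tested, 15.5% were higher and 18.1% lower, and no test compared the neighbours with them. Values of 6 of the 24 did not overlap between the groups, against 33.1% of all genes tested. Without Dux KO pools 1 and 2 the counts were 1 higher (S100a10) and 0 lower. Without pool 1 alone 2 were higher, and without pool 2 alone 3.

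Of 45 listed 2-cell genes that are tied to DUX in the field, 34 were in the table and tested. Of these, 12 were lower, 0 higher and 22 did not pass, with a median log2 difference of -0.41. Limma called 18.1% of all genes tested lower and 15.5% higher. At an unadjusted p under 0.05, 14 were lower and 0 higher, by edgeR 11 and 0, and by DESeq2 12 and 0. Zfp54, a zinc finger gene, fell from 54.1 ± 9.82 to 19.8 ± 3.14 FPKM (SD, n = 4, log2 -1.40, limma adjusted p = 0.0020). Among the genes called lower, the next in size of change were the gene models Gm21319 (log2 -1.38), Gm5039 (-1.28) and Gm8300 (-1.15). The groups overlapped for each of these gene models. Values of 5 of the 34 listed genes did not overlap between the groups, against 33.1% of all genes tested. Members of the list lie in multicopy families too, and no test compared this list with the copies. The count lower was 5 without WT pool 1, 6 without WT pool 2 and 6 without Dux KO pool 1. It was 3 without Dux KO pools 1 and 2 and 6 without pools 3 and 4.

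CUL3 is the scaffold that BTB adaptors of the SPOP kind bind. Among 47 tested genes of 52 listed for the CUL3 ligase and its BTB adaptors, 12 were lower, 4 higher and 31 did not pass, with a median of -0.08. The shares of all genes tested were 18.1% lower and 15.5% higher, and the list was not tested against them. The lower ones led with the adaptors Klhl7 (22.7 to 9.62 FPKM, log2 -1.20), Kbtbd2 (15.7 to 7.41, -0.97) and Klhl11 (41.7 to 21.4, -0.95) and the COP9 signalosome subunit Cops6 (186 to 91.3, -1.05). The higher ones were the adaptors Klhl13 (3.92 to 7.67 FPKM), Klhl8 (44.1 to 68.2), Btbd2 (5.60 to 9.03) and Klhl2 (1.45 to 2.39). The WT pools held Cul3 itself, named after its values were seen, at 221, 258, 260.3 and 264 FPKM and the Dux KO pools at 132, 126, 142 and 140.3, with no overlap (log2 -0.89, limma adjusted p = 0.0025). Spop and Spopl, the close relatives of the TDPOZ proteins and named on the same terms, did not pass (log2 0.17 and 0.20, limma adjusted p = 0.329 and 0.299). Without Dux KO pools 1 and 2 the counts of this list were 4 lower and 0 higher. The 4 higher genes became 0 without Dux KO pool 1, 1 without Dux KO pool 2, WT pool 1 or WT pool 4, and 2 without Dux KO pool 4, WT pool 2 or WT pool 3.

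Usp17l belongs to the USP class of deubiquitinases. Of 50 other genes of this class, 46 were in the table and 45 were tested, with 7 higher, 6 lower and 32 that did not pass. Their median was 0.13. Counts of this size lie near the shares of all genes tested, 15.5% higher and 18.1% lower, so they do not set the class apart. Usp2 rose from 4.62 ± 0.604 to 12.0 ± 1.99 FPKM (SD, n = 4, log2 1.20, limma adjusted p = 0.0021). Usp43, Usp13 and Usp46 rose by 0.65, 0.65 and 0.65 on the log2 scale. Usp32 fell from 12.3 to 5.84 FPKM (log2 -0.95), and Usp33, Usp29 and Usp16, a histone H2A deubiquitinase, fell by 0.70, 0.69 and 0.57. Usp16 averaged 129.6 ± 11.4 FPKM in WT (SD, n = 4), beside 108 ± 31.6 for Usp17lb. Without Dux KO pools 1 and 2 the counts were 1 higher and 1 lower. The count higher was 4 without Dux KO pool 2, WT pool 2 or WT pool 4. The count lower was 3 without Dux KO pool 1, 2 or 4 or WT pool 3 or 4.

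The genes that correlated best with the most abundant copies over the 8 pools were sought among the 6468 genes whose mean reached 5 FPKM. The measure was the Pearson correlation of log2(FPKM + 1). The values are the highest of a search through many genes over few pools. How high unrelated genes would reach in such a search was not tested, so the values show no link. For Usp17lb they were Tfdp2 (0.89), Slc23a2 (0.88), 9930104L06Rik (0.88), Nras (0.86) and Kdm3a (0.86), none of them called. For Tdpoz1 they were Eif4a2 (0.97), Lbr (0.94), Gm29290 (0.94), Hnrnpa1 (0.93) and Psmd3 (0.93). Of these Gm29290 was called lower (112 to 63.3 FPKM), as Tdpoz1 was.

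The libraries held 12343369 to 14548526 recovered gene reads. MERVL-int, the internal part of the retrovirus that DUX activates, ranged from 11360 to 16381 FPM (fragments scaled to library size) in WT and from 4548 to 6050.2 in Dux KO. Dux itself was not analysed here. All 14 oocyte-derived transcripts listed for the stage were in the table, with summed levels of 6882 to 8272 FPKM in WT and 5891 to 10966 in Dux KO. Of these 14, limma called 4 higher in Dux KO (Bmp15, Btg4, Oosp1 and Zar1) and 3 lower (Zp3, Padi6 and Dppa3). Among all genes tested it called 15.5% higher and 18.1% lower. Markers of other cells were fewer: 4 of 10 for cumulus and granulosa cells (summed 1.45 to 10.3 FPKM in WT and 5.68 to 20.99 in Dux KO), 3 of 8 for oviduct (129.8 to 149.8 and 96.8 to 138, mostly Epcam), 1 of 10 for blood (Cd74) and 0 of 6 for sperm. Among these 8 genes Cyp19a1 was called higher (0.42 to 1.06 FPKM) and Epcam lower (132 to 90.4 FPKM). The part of these marker changes in the levels of the copies was not tested.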

How the data were processed

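The authors deposited FPKM per gene and pool, with a mean count signal, a log2 fold change and an adjusted p-value per gene, and FPM, a signal of fragments scaled to library size, per repeat. Trimmomatic 0.32, STAR 2.6.1a, SAMtools 1.7 and the build GRCm38 were used, per the submitters' processing notes. How reads were counted, on which annotation and strand, and what became of reads with several positions is not given in the sources used here. The lowest mean count signal in the deposited table was 25.0, hence low genes were absent. The number of per-sample columns left unmapped was 0.

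Each gene's deposited FPKM was multiplied by its length factor (mean count signal over mean FPKM) and divided by each pool's step. The result was whole reads for 100% of values (within 0.05), 12343369 to 14548526 per pool. Up to a constant common to all genes, the length factor equalled the exon length of GENCODE M21 for 99.4% of 13100 genes found there (within 0.1%), all 7 copies included.

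The main test was limma 3.58.1 (R 4.3.3, variance trend, robust) on log2(FPKM + 1) of the 12434 genes whose mean reached 0.5 FPKM, over 8 pools without covariate, two-sided, with Benjamini-Hochberg adjustment over all genes and a threshold of 0.05. A fold change on this scale understates that of low genes. The script was tested on simulated data. Alternatives were 0.1 as the pseudocount, all genes unfiltered, only genes of 5 FPKM or more, quantile and median-of-ratios scaling, a replicate block, no trend, the deposited p-values, each pool left out, pools left out in pairs, and edgeR 4.0.16 and DESeq2 1.42.0 on recovered reads, which called 4459 and 5021 of the unfiltered genes against 4182 by limma. The ratios between copies and the separate count of Tdpoz-like copies were chosen after seeing the data. Pairs of libraries of a group differed beyond counting noise (chi-square per degree of freedom 13.8 to 117), so none was a repeat deposit. Sequences came from RefSeq (GRCm38.p6) and GENCODE M21, aligned with Biopython 1.88.

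Members and lists were chosen with earlier results of these data known. Named were the 7 copies, at most 4 genes called per list and direction, the called neighbours and the 5 genes most correlated with each leading copy. Outside this rule, Cul3, Spop and Spopl were named after their values were seen, as were some Tdpoz-like copies and marker genes.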

Additional observations from a re-analysis of the deposited data

Results flagged for a closer look

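In 34 groups of 4 pools over 17 genes (the 7 copies and the 10 Tdpoz-like copies), 3 groups held a pool whose gap to the next, divided by the range of the group, was above Dixon's 95% critical value. Chance gives such a pool in about 1 of 20 groups. Tdpoz1 was at 12.8 FPKM in Dux KO replicate 3, where the other Dux KO pools lay between 17.8 and 18.4. The gap was 0.892 of the range. Without this pool the log2 fold change of Tdpoz1 was -0.44 and it was still called lower (limma, adjusted p = 0.0491). Gm5541, a copy 97.3% identical to Tdpoz4, was at 4.42 FPKM in Dux KO replicate 3, with the others between 2.26 and 2.599. Gm9131 was at 2.97 FPKM in Dux KO replicate 4, with the others between 1.28 and 1.45. Gm5541 and Gm9131 were not called.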

How the results depend on the processing

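Tdpoz1 kept its direction in 20 of 20 alternatives and lost its call in 4 (adjusted p 0.0102 to 0.0805): quantile normalization (-0.44), and without WT replicate 2 (-0.51), Dux KO replicates 1 and 2 (-0.68) or 3 and 4 (-0.43). The count of members lower was then 0, and 0 to 1 with single pools left out. Uncalled copies changed sign: Usp17lb was 0.20 under quantile normalization, 0.15 without Dux KO replicates 1 and 2, and -0.25 to 0.10 with single pools left out (Dux KO replicate 1: 0.0046, replicate 2: 0.015). Tdpoz4 was 0.145 without Dux KO replicates 1 and 2, and -0.422 (WT replicate 2) to 0.0679 (WT replicate 3) with single pools left out. Usp17la was -0.0653 without Dux KO replicates 1 and 2. A mean of at least 5 FPKM left no value for Usp17la, Usp17lc and Usp17ld, gave 3 higher and 3 lower of the USP genes and 3 higher neighbours, and called 1 Tdpoz-like copy, Gm5543, lower. That copy was also lower without Dux KO replicates 3 and 4 (1 called).

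Without Dux KO replicates 1 and 2, the DUX-linked list gave 3 lower, the CUL3 list 0 higher and 4 lower, the USP list 1 and 1, and neighbours 1 and 0. Without replicates 3 and 4 the DUX-linked list gave 6 lower. Leaving out single pools gave 0 to 1 higher and 5 to 13 lower in the DUX-linked list, 0 to 4 higher in the CUL3 list, 4 to 8 higher and 3 to 6 lower in the USP list, 2 to 5 higher among neighbours and 0 to 1 lower among Tdpoz-like copies. The cause was not tested, though fewer pools or genes enter these fits. Quantile and median-of-ratios scaling put the median of all genes at -0.03 and -0.01.

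Whether replicate numbers pair the pools was not settled. Deviations of same-numbered pools correlated at -0.12, 0.33, -0.06 and 0.30. WT pools 2 and 4 correlated best with the Dux KO pool of their own number, and WT pools 1 and 3 with another. A replicate block called 4732 genes, against 4182 in the main test. With the replicate block, Tdpoz1 stayed at -0.55 (adjusted p 0.023), 1 member was lower and 0 higher, 1 DUX-linked gene (Tcstv1) was higher and 14 lower, and 1 Tdpoz-like copy (Gm5543) was lower. At 8 to 178 reads per pool, counting noise adds to the spread of Usp17la, Usp17lc and Usp17ld. Its part in that spread was not tested.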
